A study of Rattus norvegicus with 16 samples.

Results

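The genes described here are 10 markers of macrophages and other myeloid cells, measured in the normal distal colon of rats. They are Lyz2, Cd68, Aif1, Tyrobp, Fcer1g, Cd163, Adgre1, Mrc1, Csf1r and Spi1. A probe was taken as a member when the RefSeq transcript it was designed for carries 1 of these symbols, which gave 13 probes for the 10 genes, of 30367 probes and 15159 gene symbols measured. Csf1r, Aif1 and Fcer1g have 2 probes each, and each gene is described by its brightest probe, with the second given beside it.

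There were 16 rats, 4 in each of 4 groups, and each rat was hybridised to 1 single-colour Agilent array. All were males of 97 days from the F1 cross of ACI and F344, and their normal distal colon was sampled. Wildtype rats carried 2 intact Apc alleles, although their strain label also carries the word Pirc, and Pirc rats carried 1 Apc allele with the Pirc nonsense mutation, which predisposes the colon to tumours. Treated rats of both genotypes drank 4% dextran sodium sulfate (DSS), a polymer that injures and inflames the colon, from day 40 to day 47 and again from day 54 to day 61. Untreated rats of both genotypes received none, and sampling came 36 days after the last DSS. The Pirc allele was inherited, so every cell type of a Pirc rat carried it, and the tissue was a bulk sample in which fewer cells of a type and less RNA per cell cannot be told apart. Nothing in the labels says that rats shared litters or cages, and p-values measure the spread between these 16 rats.

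Macrophages of the colon lie mostly in the connective tissue below the epithelium, where they clear bacteria and dead cells, and many are replaced from blood monocytes. Settled, resident macrophages are known for scavenger and complement genes, whereas monocytes that have recently entered injured tissue are known for cytokines, chemokines and calprotectin. Survival of many resident macrophages depends on the receptor encoded by Csf1r. The identity of both cell types depends on the transcription factor PU.1, encoded by Spi1. Many of their activating receptors have no signalling tail of their own and pair with the adaptors encoded by Tyrobp and Fcer1g, which carry ITAM motifs and recruit the kinase Syk.

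PU.1 binds a core written GAGGAA, or TTCCTC on the opposite strand, in many myeloid genes. Of the 10 members, 6 had an entry in the RefSeq promoter table (GRCr8 build). Aif1, Tyrobp, Fcer1g and Spi1 had none. The 250 bases before the start of 4 genes are shown because these genes ranged from the largest difference after DSS (Lyz2) to a small one (Adgre1); capitals mark the core. The regions were chr7:54798012-54798261 on the minus strand for Lyz2, chr10:54882442-54882691 on the minus strand for Cd68, chr4:158770524-158770773 on the plus strand for Cd163 and chr9:2329190-2329439 on the plus strand for Adgre1. Each is written 5′ to 3′ on the strand of its gene.
Lyz2: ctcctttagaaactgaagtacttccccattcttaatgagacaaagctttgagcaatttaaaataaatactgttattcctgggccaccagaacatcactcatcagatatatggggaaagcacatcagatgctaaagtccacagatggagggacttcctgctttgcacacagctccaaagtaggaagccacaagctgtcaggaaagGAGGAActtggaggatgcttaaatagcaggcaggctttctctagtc
Cd68: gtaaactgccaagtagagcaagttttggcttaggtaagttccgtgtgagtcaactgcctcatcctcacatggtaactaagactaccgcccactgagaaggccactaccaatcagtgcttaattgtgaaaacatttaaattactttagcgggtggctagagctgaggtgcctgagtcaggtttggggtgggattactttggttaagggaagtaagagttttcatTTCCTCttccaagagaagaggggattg
Cd163: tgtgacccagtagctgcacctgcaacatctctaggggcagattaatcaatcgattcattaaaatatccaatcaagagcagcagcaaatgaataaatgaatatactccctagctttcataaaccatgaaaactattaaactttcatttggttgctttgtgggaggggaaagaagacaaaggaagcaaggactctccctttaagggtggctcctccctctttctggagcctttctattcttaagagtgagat
Adgre1: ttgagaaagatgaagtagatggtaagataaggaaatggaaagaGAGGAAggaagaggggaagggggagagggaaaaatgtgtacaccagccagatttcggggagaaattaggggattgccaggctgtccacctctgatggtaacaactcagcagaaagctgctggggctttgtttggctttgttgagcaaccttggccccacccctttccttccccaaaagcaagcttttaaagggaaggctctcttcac
The core began 46 bases before the start of Lyz2, 27 bases before that of Cd68 (opposite strand) and 207 bases before that of Adgre1, and no match was found in the window of Cd163. It occurred in 5 of the 6 members with an entry and in 23.3% of the 33469 windows of the same length, so a match is common and is given as a description only.

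Signals are given as relative signal, the log2 of a probe's signal minus the log2 of the 75th percentile of its array, so that 0 is the 75th percentile and 1 unit is a factor of 2. They were compared within a probe, never between genes. The 75th percentile lay between 875.36 and 2194 over the arrays, and 71.11% to 80.32% of spots were well above background, with 0 saturated spots on any array. The arrays lay on 2 slides, each with 2 rats of every group. Within a slide each group filled its own column of arrays, so that array column and group cannot be told apart. Of the 13 member probes, 12 were well above background on all 16 arrays, the exception being the probe of Mrc1. A gene is said to have risen or fallen when its adjusted p from limma (Benjamini-Hochberg over all 30367 probes) was 0.05 or less.

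After DSS, 7 of the 10 genes rose over both genotypes and none fell. The pan-macrophage and adaptor genes Lyz2, Cd68, Aif1, Tyrobp and Fcer1g rose between 2.92-fold and 7.84-fold, Cd163 rose 2.18-fold and Adgre1 1.54-fold. Csf1r, Spi1 and Mrc1 did not pass. Over all probes 10.2% passed in the higher direction and 6.99% in the lower direction. The median log2 difference of the 10 genes was 1.34, beside 0.06 over all probes. The members were chosen with earlier results of these data known, so the counts and medians here describe them and are not a test. In Pirc rats 6 of 10 rose, where 8.14% of probes were called higher and 6.51% lower, and in wildtype rats 5 of 10 rose, where 2.94% were called higher and 0.899% lower. Counted by overlap instead, all 4 DSS-treated rats exceeded all 4 untreated rats for 7 genes in Pirc rats (8.88% of all probes) and for 5 genes in wildtype rats (8% of all probes).

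**Figure D1:**
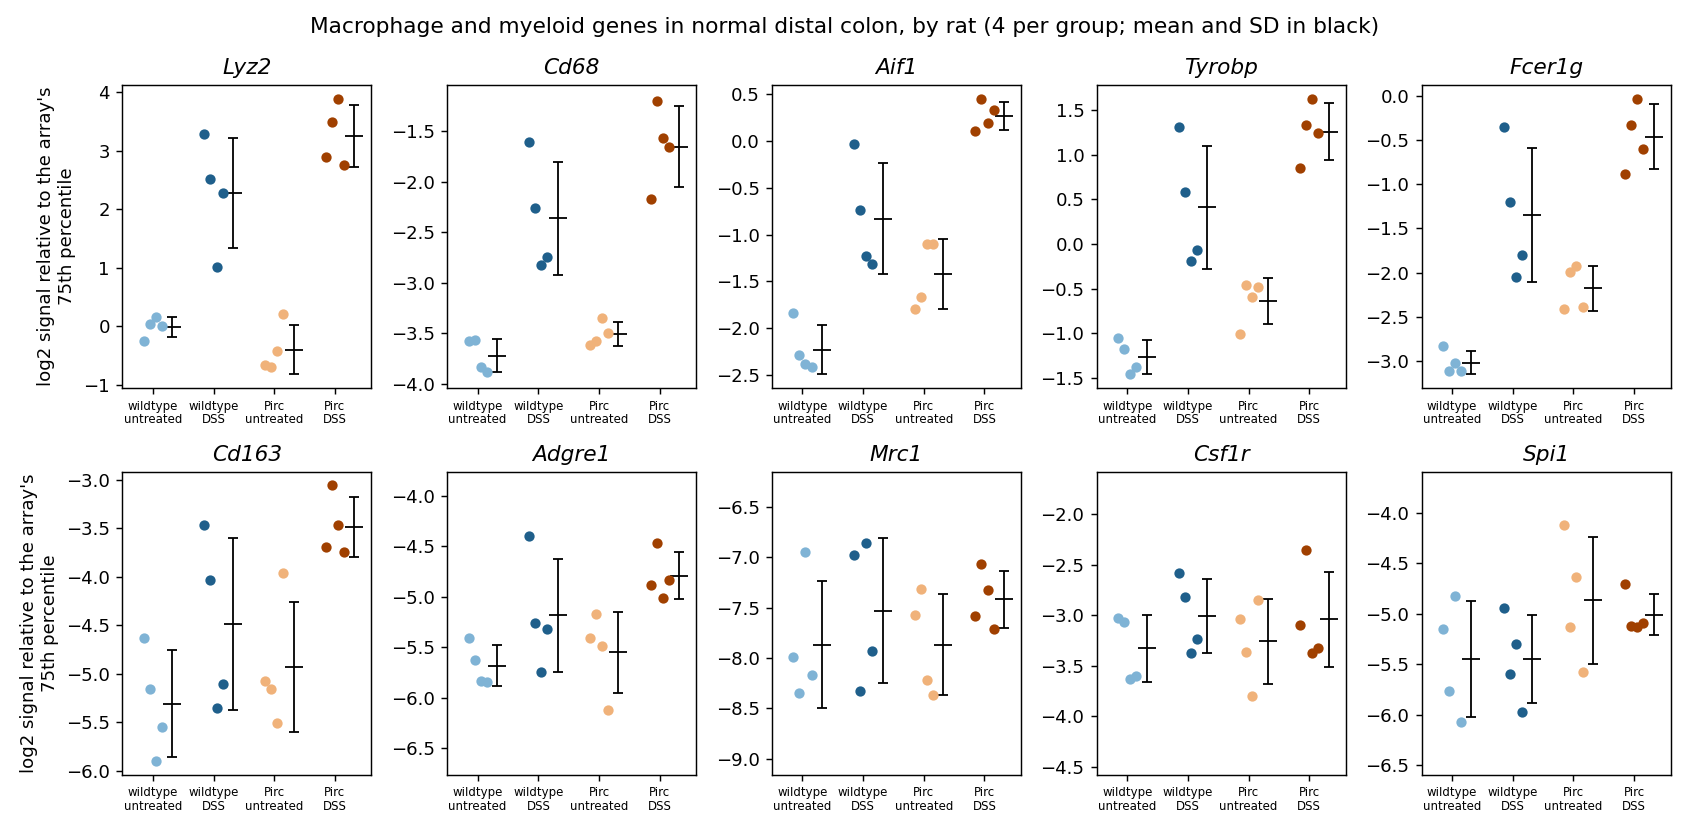
Relative signal (log2, y axis) of the 10 genes in the 4 groups (x axis), with 1 point per rat and the mean and SD of 4 rats in black. The 5 genes of the upper row, Lyz2 to Fcer1g, lie higher in every DSS-treated rat than in the untreated rats of the same genotype, whereas the points of Mrc1, Csf1r and Spi1 overlap between the groups.

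Lyz2, the lysozyme that degrades bacterial cell walls and is made by macrophages, neutrophils and Paneth cells, had the largest difference. Its relative signal was -0.25, 0.04, 0.16 and 0.00 in the untreated wildtype rats and 3.29, 2.52, 1.02 and 2.28 in the DSS-treated wildtype rats. In Pirc rats it was -0.67, -0.70, -0.42 and 0.20 without DSS and 2.89, 3.49, 3.89 and 2.76 after DSS. The groups with and without DSS did not overlap in either genotype, and the lowest DSS-treated rat was wildtype rat 22. The log2 difference was 3.66 in Pirc rats (standard error 0.39, 12.6-fold, limma adjusted p = 9.06e-05) and 2.29 in wildtype rats (standard error 0.39, 4.88-fold, limma adjusted p = 0.00556). The difference between these effects was 1.37 (95% confidence interval 0.20 to 2.54), which did not pass over all probes (limma adjusted p = 0.393).

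Cd68 encodes a lysosomal membrane glycoprotein of phagocytes. Without DSS its relative signal was -3.58, -3.57, -3.83 and -3.88 in wildtype rats and -3.62, -3.58, -3.35 and -3.50 in Pirc rats. After DSS it was -1.61, -2.26, -2.82 and -2.74 in wildtype rats and -2.17, -1.20, -1.57 and -1.65 in Pirc rats. Untreated rats of both genotypes lay within a narrow band, and every DSS-treated rat lay above it. The log2 difference was 1.87 in Pirc rats (3.65-fold, standard error 0.25, limma adjusted p = 0.000259) and 1.36 in wildtype rats (2.56-fold, standard error 0.25, limma adjusted p = 0.00836).

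Aif1 encodes IBA1, an actin-bundling, calcium-binding protein of macrophages. Its relative signal in untreated rats was -1.84, -2.29, -2.38 and -2.41 in wildtype and -1.80, -1.67, -1.10 and -1.10 in Pirc. After DSS it was -0.03, -0.74, -1.23 and -1.31 in wildtype rats and 0.11, 0.45, 0.19 and 0.33 in Pirc rats. Its groups ran in the order untreated wildtype, untreated Pirc, DSS-treated wildtype and DSS-treated Pirc, with an overlap only between the second and the third. The log2 difference after DSS was 1.69 in Pirc rats (3.22-fold, standard error 0.26, limma adjusted p = 0.000675) and 1.40 in wildtype rats (2.65-fold, standard error 0.26, limma adjusted p = 0.00887). The second probe of Aif1 followed the first (r = 0.99 over 16 arrays) and gave 1.59 and 1.19.

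The signalling adaptors moved alike in size. Tyrobp encodes DAP12, the partner of TREM receptors, and its relative signal was -1.05, -1.18, -1.46 and -1.38 in untreated wildtype rats, 1.31, 0.58, -0.19 and -0.07 in DSS-treated wildtype rats, -1.01, -0.46, -0.60 and -0.48 in untreated Pirc rats and 0.85, 1.34, 1.63 and 1.24 in DSS-treated Pirc rats. The groups with and without DSS did not overlap within a genotype. The log2 difference was 1.90 in Pirc rats (3.73-fold, standard error 0.28, limma adjusted p = 0.000522) and 1.68 in wildtype rats (3.19-fold, standard error 0.28, limma adjusted p = 0.00533). Fcer1g encodes the gamma chain shared by Fc receptors of macrophages, mast cells and natural killer cells. Its relative signal was -2.83, -3.11, -3.02 and -3.11 in untreated wildtype rats, -0.35, -1.20, -2.05 and -1.80 in DSS-treated wildtype rats, -2.41, -1.99, -1.93 and -2.39 in untreated Pirc rats and -0.88, -0.33, -0.03 and -0.60 in DSS-treated Pirc rats. Here too the groups with and without DSS were separate within each genotype. It rose by a log2 difference of 1.72 in Pirc rats (3.29-fold, standard error 0.30, limma adjusted p = 0.00152) and 1.67 in wildtype rats (3.18-fold, standard error 0.30, limma adjusted p = 0.00745), and its second probe gave 1.80 and 1.69. When only the wildtype groups were fitted, Fcer1g (adjusted p = 0.0538) and Aif1 (adjusted p = 0.0561) no longer passed in wildtype rats.

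Among the DSS-treated wildtype rats, rat 14 was the highest for all 5 of these genes, and rats 22 and 26, on the other slide, were the lowest in Cd68, Aif1, Tyrobp and Fcer1g. Within slides the DSS effect over both genotypes was 1.94 and 1.63 for Tyrobp, 1.90 and 1.49 for Fcer1g, 1.78 and 1.44 for Cd68, 1.85 and 1.24 for Aif1 and 3.44 and 2.50 for Lyz2 (log2 differences, slide 1 and slide 2, 2 rats a group). Each was therefore present on both slides.

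Cd163, the haemoglobin-haptoglobin scavenger receptor of resident macrophages, passed in Pirc rats and over both genotypes (limma adjusted p = 0.016 for the latter). Its relative signal was -5.08, -5.16, -5.51 and -3.96 in untreated Pirc rats and -3.69, -3.06, -3.47 and -3.75 in DSS-treated Pirc rats. Rat 23 was the highest untreated Pirc rat but lay below every DSS-treated Pirc rat. The log2 difference in Pirc rats was 1.44 (2.71-fold, standard error 0.42, limma adjusted p = 0.0334), and it no longer passed when any 1 of 6 rats was left out (Pirc rats 11, 15, 19, 12, 16 and 20, highest adjusted p = 0.101) or without moderation of the variances (adjusted p = 0.0528). In wildtype rats its relative signal was -4.63, -5.16, -5.90 and -5.55 without DSS and -3.47, -4.03, -5.35 and -5.11 with DSS, so that the groups overlapped. The log2 difference was 0.82 (95% confidence interval -0.08 to 1.71) in wildtype rats and 0.48 without wildtype rat 14.

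Adgre1 encodes the rat counterpart of F4/80, an adhesion G protein-coupled receptor of macrophages. Its relative signal was -5.41, -5.62, -5.83 and -5.84 in untreated wildtype rats and -4.40, -5.26, -5.74 and -5.32 in DSS-treated wildtype rats. In Pirc rats it was -5.41, -5.17, -5.49 and -6.12 without DSS and -4.88, -4.47, -5.01 and -4.83 after DSS. The Pirc groups did not overlap and the wildtype groups did. Over both genotypes the log2 difference was 0.63 (1.54-fold, standard error 0.18, limma adjusted p = 0.0273), and within a genotype it did not pass (0.75 in Pirc rats, limma adjusted p = 0.0657, and 0.50 in wildtype rats, limma adjusted p = 0.36). Without wildtype rat 14 the wildtype value was 0.24. The call over both genotypes was lost under quantile normalization (0.42, adjusted p = 0.0787), under normexp background correction (0.17, adjusted p = 0.0764), and without Pirc rat 16 or wildtype rat 21 or 25 (highest adjusted p = 0.0556). In Pirc rats Adgre1 passed with the slide as a block (adjusted p = 0.0237), with slide and row (0.0409) and with a filter on dim probes (0.0424).

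The receptor and the transcription factor did not pass in any comparison as fitted. Csf1r had a relative signal of -3.03, -3.07, -3.63 and -3.60 in untreated wildtype rats, -2.58, -2.82, -3.38 and -3.24 in DSS-treated wildtype rats, -3.04, -3.37, -3.80 and -2.85 in untreated Pirc rats and -3.10, -2.36, -3.38 and -3.33 in DSS-treated Pirc rats. All 4 groups overlapped. The DSS effect over both genotypes was a log2 difference of 0.27 (95% confidence interval -0.14 to 0.68, limma adjusted p = 0.41), so that a change of more than 0.68 lay outside the interval. Its second probe gave 0.34 (95% confidence interval -0.09 to 0.77), although the 2 probes of Csf1r correlated at only r = 0.58 over the arrays. Spi1 had a relative signal of -5.15, -5.77, -4.83 and -6.07 in untreated wildtype rats and -4.94, -5.60, -5.30 and -5.97 in DSS-treated wildtype rats. In Pirc rats it was -4.12, -5.13, -4.64 and -5.58 without DSS and -4.71, -5.12, -5.13 and -5.09 after DSS. The DSS effect of Spi1 over both genotypes was -0.07 (95% confidence interval -0.56 to 0.42, limma adjusted p = 0.884). Its difference between Pirc and wildtype rats over both treatments was 0.51 (limma adjusted p = 0.142). This difference passed by limma with the row of the array as a block (adjusted p = 0.0277) and with slide and row (adjusted p = 0.0283).

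Mrc1, the mannose receptor of resident and alternatively activated macrophages, was well above background on 2 of 16 arrays (wildtype DSS-treated in 1 rat and Pirc untreated in 1 rat). Its relative signal ran from -8.37 to -6.86 over the 16 rats. With the probe at background in all groups, no fold is given for it.

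**Figure D2:**
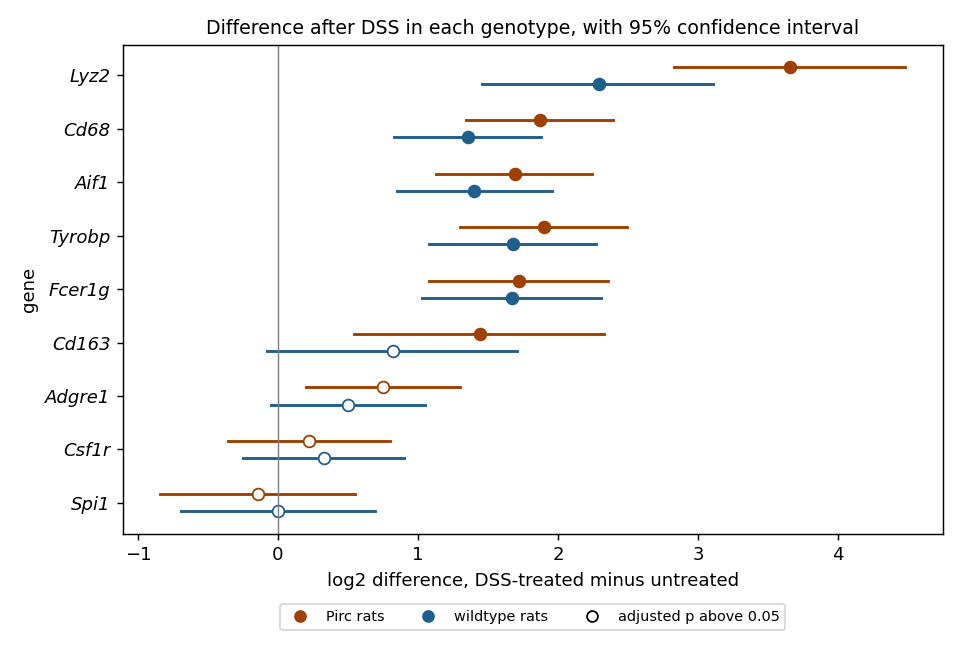
Log2 difference between DSS-treated and untreated rats (x axis) for 9 genes (y axis; Mrc1, at background, is left out), in Pirc rats and in wildtype rats, with 95% confidence intervals from limma; filled points have an adjusted p of 0.05 or less. Lyz2 to Fcer1g are filled in both genotypes, Cd163 only in Pirc rats (1.44 against 0.82), and the intervals of Csf1r and Spi1 span 0.

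None of the 10 genes passed the test of the difference between the DSS effects of the genotypes, where 0.0428% of probes were called with a larger effect in Pirc rats and 0% with a smaller one. The log2 differences of this test ran from -0.15 (Spi1) to 1.37 (Lyz2) over the 10 genes. At an unadjusted p under 0.05, 3234 of all probes would have been counted. A filled point in 1 genotype and an open point in the other, as for Cd163, is therefore not a tested difference (0.62, 95% confidence interval -0.65 to 1.89).

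The 10 genes were then set against lists of genes with known roles. These lists, like the members, were chosen with earlier results of these data known, so their counts are descriptions. Of 25 resident macrophage genes, 4 are members (Cd163, Mrc1, Adgre1 and Csf1r), and 19 of the others were measured. Of these 19, 10 rose after DSS over both genotypes and 1 fell, with a median log2 difference of 0.46. Those with the largest differences among well-measured genes were Apoe, the lipid carrier made by macrophages (7.74-fold, standard error 0.26 log2 units, limma adjusted p = 1.35e-05), Clec10a, a galactose-type lectin receptor (4.32-fold), Trem2, a lipid-sensing receptor that signals through the Tyrobp adaptor (3.61-fold), and C1qa, a chain of the first complement component (2.98-fold). Gas6, the ligand of MERTK, was the gene that fell (log2 difference -0.80). Cx3cr1, the fractalkine receptor of resident intestinal macrophages, named like Gas6 after its value was seen, had a log2 difference of -0.13 and did not pass. Siglec1 and Cd209a were well above background on 0 arrays and Vsig4 on 1.

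Of 28 inflammatory monocyte and macrophage genes, 27 were measured, 18 rose over both genotypes and 0 fell, with a median log2 difference of 1.97. In wildtype rats 10 rose (median 1.73) and in Pirc rats 18 (median 2.22). Il1b, which encodes the cytokine interleukin 1 beta, was 25.9-fold higher over both genotypes (log2 difference 4.69, standard error 0.63, limma adjusted p = 0.000149). Tnf was 9.76-fold higher, and S100a8 and S100a9, the chains of calprotectin, were 11.9-fold and 8.02-fold higher. Il1b differed between the DSS-treated wildtype rats, with relative signals of 0.37 and 1.02 in rats 14 and 18 and of -3.64 and -3.03 in rats 22 and 26. The first pair lay on slide 1 and the second on slide 2. Il6 was well above background on 0 arrays. Of the inflammatory list, S100a8, S100a9 and Fpr1 also stand in the neutrophil list, so that they mark more than macrophages.

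The resident and the inflammatory lists thus both held genes that rose with the members, and in wildtype rats alone 8 of the 19 resident genes rose. The medians (0.46 and 1.97) describe these lists, and no test compared the lists with each other.

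The genes around the adaptors behaved as follows. Of 26 other measured genes for ITAM receptors, adaptors and kinases, 14 rose after DSS over both genotypes and 1 fell, with a median log2 difference of 1.23. They included Fcgr2b (4.87-fold), the inhibitory Fc receptor, Fcgr1a (3.92-fold), a high-affinity Fc receptor that pairs with the Fcer1g chain, and Clec4a3 (3.48-fold), a C-type lectin receptor. Syk itself rose by 0.97 on the log2 scale and was named after its value was seen. Of the phagocyte oxidase, which makes superoxide, 4 of 5 measured genes rose, namely Rac2 (3.08-fold), Ncf4 (2.32-fold), Ncf1 (1.75-fold) and Cybb (log2 difference 0.79, well above background on 14 arrays). Of 27 other lysosome and scavenger receptor genes, 8 rose and 3 fell (median 0.13), with Cd36 at 4.05-fold and the cathepsins Ctsk at 3.69-fold and Ctsl at 2.31-fold. Lamp2 and Ctsh were among those that fell (log2 differences -0.60 and -0.29). Cd68 and Lyz2 are members of that list and are not counted there.

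Around Csf1r, 0 of 9 other colony-stimulating factors and receptors rose over both genotypes and 0 fell. Csf1, its ligand, had a log2 difference of 0.33. Il34, the alternative ligand of the receptor, fell in Pirc rats after DSS (log2 difference -0.98, limma adjusted p = 0.0125). Its relative signal was 1.79, 1.74, 2.12 and 1.71 in untreated Pirc rats and 0.40, 1.02, 0.47 and 1.58 in DSS-treated Pirc rats, against 2.04 to 2.82 in DSS-treated wildtype rats. Among DSS-treated rats it was lower in Pirc than in wildtype rats (log2 difference -1.60, limma adjusted p = 0.00104).

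Around Spi1, 7 of 18 other myeloid transcription factors rose over both genotypes and 1 fell (median 0.21). Zeb2, a repressor that also acts in mesenchymal cells, rose 5.53-fold, Irf5, a driver of inflammatory cytokine genes, 3.93-fold, and Cebpd 2.65-fold. Id2, an inhibitor of helix-loop-helix factors, fell (log2 difference -0.59). Of 11 other genes of alternative activation, 5 rose and 0 fell (median 0.28), with Tgm2, a transglutaminase, at 12.7-fold, Igf1, a growth factor, at 6.25-fold, Arg1, arginase, at 4.2-fold, Socs3, a suppressor of cytokine signalling, at 1.88-fold and the chemokine Ccl17 at a log2 difference of 1.44. Within genotypes 5 of the 11 rose in Pirc rats and 1, Igf1, in wildtype rats. The test of the difference (limma) called 0, with 2 at an unadjusted p under 0.05.

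**Figure D3:**
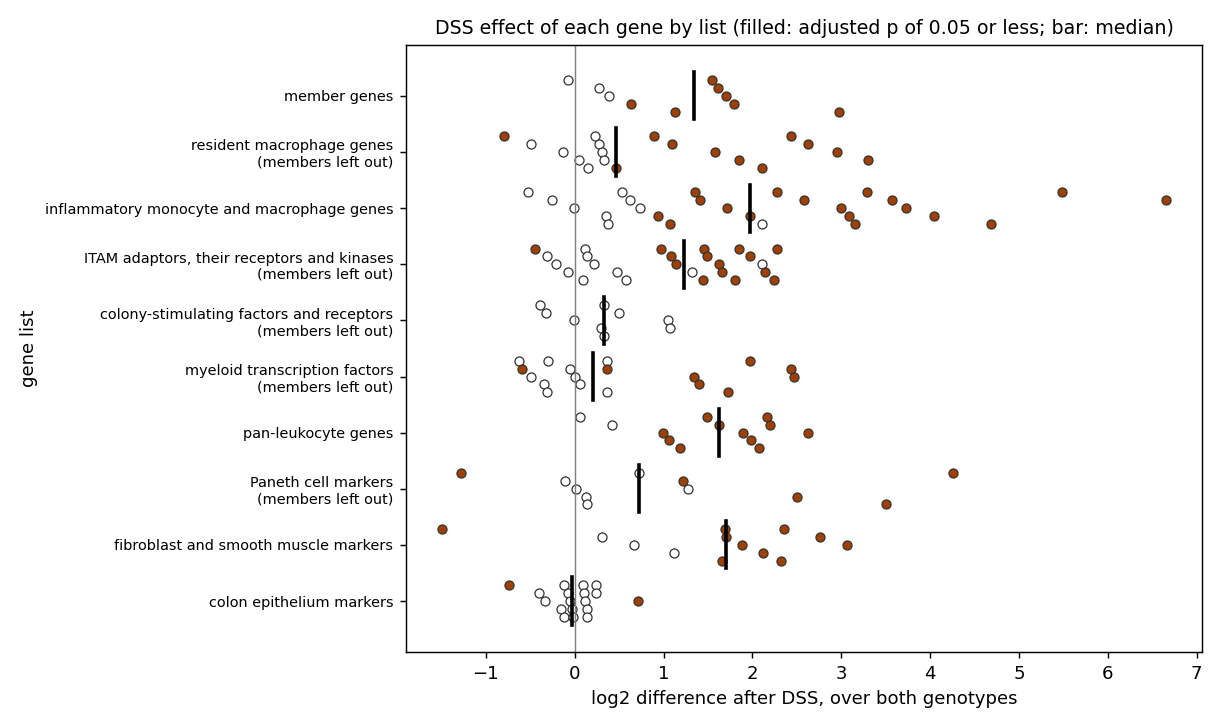
Log2 difference after DSS over both genotypes (x axis) of every measured gene in 10 lists (y axis; members are shown only in the member row where so marked), with 1 point per gene, filled where the adjusted p was 0.05 or less, and a bar at the list median. The member genes have a median of 1.34, the inflammatory list 1.97, the resident list 0.46 and the colon epithelium list -0.03.

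Genes of other cells moved as well. Of 13 pan-leukocyte genes measured, 11 rose and 0 fell over both genotypes (median 1.63), with Cd53 at 4.2-fold, Arhgdib at 3.97-fold and Ptprc, the CD45 phosphatase of all leukocytes, at 3.72-fold. To compare rats, the signals of a list were centred on each gene's mean over the 16 arrays and averaged. This list level ran from -1.02 to -0.54 in untreated wildtype rats, -0.14 to 1.10 in DSS-treated wildtype rats, -0.76 to -0.60 in untreated Pirc rats and 0.49 to 1.19 in DSS-treated Pirc rats. The list level of the 10 members ran from -0.97 to -0.55, -0.16 to 1.05, -0.48 to -0.39 and 0.71 to 1.19 in the same groups. Both levels were higher in every DSS-treated rat than in the untreated rats of the same genotype, but they did not order the rats alike. Wildtype rat 26 (DSS-treated) had a pan-leukocyte level of 0.88 and a member level of -0.09, and wildtype rat 25 (untreated) had the highest pan-leukocyte level of its group (-0.54) and the lowest member level (-0.97). Untreated Pirc and wildtype rats did not overlap in the member level and overlapped in the pan-leukocyte level. This separation was not particular to the members. The inflammatory level ran from -0.90 to -0.40 in untreated Pirc and from -1.55 to -1.16 in untreated wildtype rats. The phagocyte oxidase level ran from -0.37 to -0.27 and from -0.86 to -0.41 in these groups. The Paneth cell level, given below and computed with the member Lyz2 included, was separate as well. The part of leukocyte number in the members' rise was not tested.

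Among the leukocytes other than macrophages, 6 of 16 neutrophil markers, 9 of 14 mast cell and basophil markers, 5 of 17 natural killer and T cell markers, 5 of 9 B and plasma cell markers, 3 of 10 dendritic cell markers and 1 of 6 eosinophil markers rose over both genotypes, and none fell. The smaller counts were Ccr3 among the eosinophil markers, Fscn1, Batf3 and Clec9a among those of dendritic cells, Il2rb, Nkg7, Gzma, Prf1 and Cd2 among those of natural killer and T cells, and Cd79b, Blk, Mzb1 and Tnfrsf17, with others, among those of B and plasma cells. Of these, Clec9a was well above background on 1 array and Blk on 0, so that their values rest on signals near background. Split by genotype, 5 of the 9 B and plasma cell markers rose in Pirc rats, while among wildtype rats limma called 0 of 9 (1 at an unadjusted p under 0.05). Natural killer and T cell markers rose in 1 of 17 cases in Pirc rats (median 0.20), and wildtype rats had 4 of 17 (median 0.90). The test of the difference between the DSS effects (limma) called 0 genes of both lists, with 1 and 7 at an unadjusted p under 0.05. The neutrophil level ran from -0.66 to -0.31 in untreated and -0.30 to 0.52 in DSS-treated wildtype rats, and from -0.65 to -0.29 and 0.25 to 1.32 in Pirc rats. Elane, a gene of the neutrophil list, was well above background on 0 arrays. The mast cell level ran from -0.92 to -0.54 and 0.13 to 0.83 in wildtype rats and from -0.63 to -0.45 and 0.48 to 0.89 in Pirc rats. Mcpt1, a mast cell protease, was 9.43-fold higher over both genotypes, and mast cells use the Fcer1g chain. Of the remaining lists the markers Klrd1 (natural killer cells), Xcr1 (dendritic cells) and Epx (eosinophils) were well above background on 0 arrays. The share of any of these cells in the signal of Tyrobp, Fcer1g or Lyz2 was not tested.

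Outside the leukocytes, 9 of 13 fibroblast and smooth muscle markers rose and 1 fell (median 1.70), with Dcn, decorin, at 8.31-fold and Col1a1 at 5.12-fold. The one that fell was Des, the muscle filament desmin (log2 difference -1.49). Of 8 endothelium markers 5 rose, namely Kdr, Pecam1, Emcn, Tie1 and Lyve1. Tie1 was well above background on 2 arrays, and Lyve1 is also in the resident list. The fibroblast level ran from -1.07 to 0.31 in untreated and -0.43 to 1.40 in DSS-treated wildtype rats, and from -1.06 to -0.70 and 0.22 to 1.76 in Pirc rats. Of 18 colon epithelium markers 1 rose, Car4, and 1 fell, Slc26a3, a chloride exchanger (median -0.03), and the epithelial level ran from -0.66 to 0.32 over all groups. In Pirc rats 3 of them fell after DSS, namely Slc26a3 (-1.72), Guca2a, guanylin (-0.80), and Epcam (-0.42, log2 differences). Of 8 genes that mark the distal position in the colon, 7 had a difference below 0 over both genotypes. Hoxd10 (-0.59) and Hoxb13 (-0.34) fell there and Car4, which is also in this list, rose, and in Pirc rats Hoxd10, Hoxb13 and Hoxd13 fell (-0.98, -0.51 and -0.51). The part of the sampled position in the members' DSS effect was not tested. All 18 epithelial markers were well above background on all 16 arrays. How much of the connective tissue below the epithelium each sample held was not tested.

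Lyz2 is also a Paneth cell gene. Of the 11 other Paneth cell genes measured, 4 rose over both genotypes (Mmp7, Pla2g2a, Defa9 and Habp2) and 1 fell (Itln1, an intelectin that goblet cells also make, -1.28 on the log2 scale). Mmp7, the metalloproteinase that activates defensins, rose 55.2-fold in Pirc and 6.63-fold in wildtype rats after DSS, and Pla2g2a, a secreted phospholipase, rose 21.8-fold and 5.92-fold. Defa9, an alpha-defensin, had relative signals of -2.94, -1.66, -2.73 and -1.72 in untreated wildtype rats and -4.41, -5.05, -5.60 and -4.26 after DSS. In Pirc rats it was -1.72, -0.73, -0.95 and -1.10 without DSS and 3.65, 2.40, 5.65 and 3.84 after DSS. Defa9 thus fell in wildtype rats (log2 difference -2.57) while Lyz2 rose there (2.29), and both rose in Pirc rats. Mmp7 and Pla2g2a, by contrast, rose in both genotypes, as Lyz2 did. The Paneth cell level, with Lyz2 included, ran from -1.18 to -0.83 and -1.28 to -0.48 in wildtype rats without and with DSS. In Pirc rats it ran from -0.45 to 0.10 and 1.42 to 3.01. Defa5 and Reg3g were well above background on 0 arrays. The part of Paneth cells in the Lyz2 signal was not tested.

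**Figure D4:**
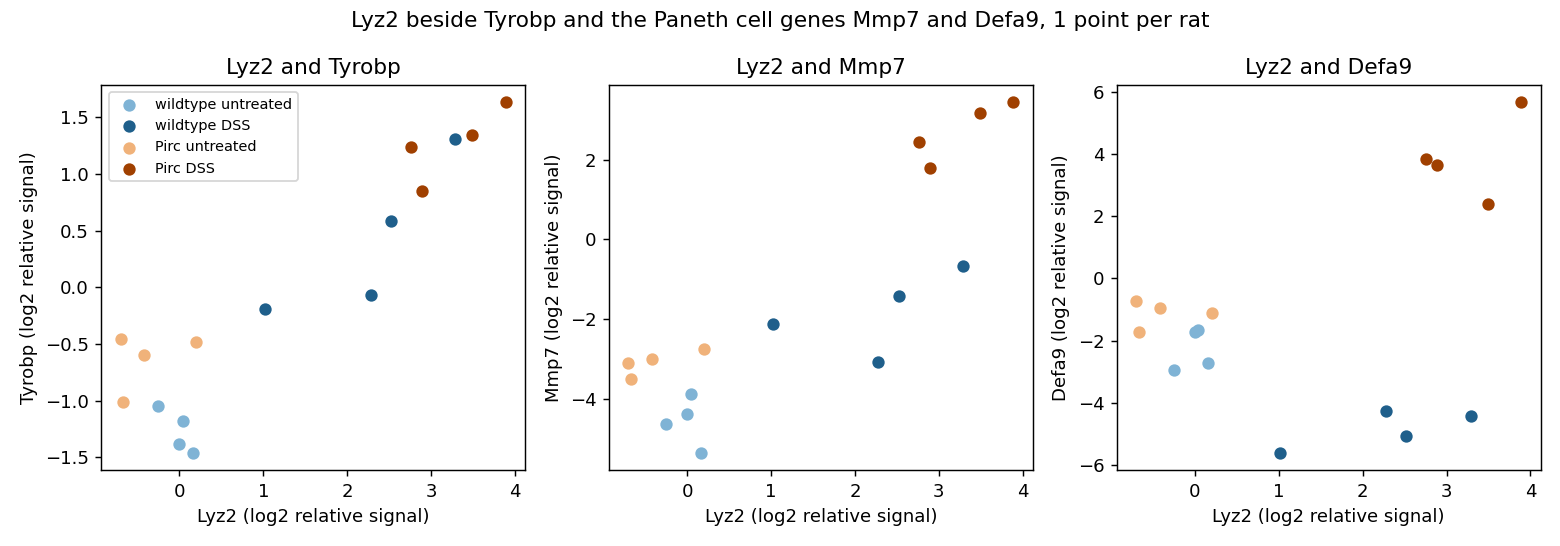
Relative signal (log2) of Lyz2 on the x axis against Tyrobp, Mmp7 and Defa9 on the y axes, with 1 point per rat in the colour of its group. Lyz2 and Tyrobp are both higher in all DSS-treated rats. Mmp7 is higher in every DSS-treated rat than in the untreated rats of the same genotype. Defa9 is lowest in the DSS-treated wildtype rats (-5.60 to -4.26) and highest in the DSS-treated Pirc rats (2.40 to 5.65).

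The second factor of the design was the genotype. Over both treatments 3 of the 10 genes were higher in Pirc than in wildtype rats, where 9.26% of probes were called higher and 8.27% lower. They were Aif1 (1.94-fold, log2 difference 0.96, standard error 0.18, limma adjusted p = 0.00396), Fcer1g (1.82-fold, 0.86, standard error 0.21, limma adjusted p = 0.0126) and Tyrobp (1.68-fold, 0.74, standard error 0.20, limma adjusted p = 0.0184). The second probes of Aif1 and Fcer1g passed as well (0.69 and 0.62). None of the 3 reached a factor of 2. The median log2 difference of the 10 genes was 0.48, beside -0.06 over all probes.

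In untreated rats 0 of 10 genes passed by limma, as did 0% of all probes in either the higher or the lower direction, although 3103 probes had an unadjusted p under 0.05. The log2 differences were 0.84 for Fcer1g (95% confidence interval 0.20 to 1.47), 0.81 for Aif1 (0.26 to 1.37) and 0.63 for Tyrobp (0.04 to 1.23). For these 3 genes every untreated Pirc rat lay above every untreated wildtype rat, as did 4.69% of all probes. Lyz2 differed by -0.39 (95% confidence interval -1.21 to 0.44) and Cd68 by 0.20 (-0.32 to 0.73), and their groups overlapped.

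Among DSS-treated rats 2 of 10 genes passed, where 9.47% of probes were called higher in Pirc rats and 8.76% lower. Aif1 was 2.14-fold higher (log2 difference 1.10, standard error 0.26, limma adjusted p = 0.0105), with all 4 Pirc rats above all 4 wildtype rats, as 9.62% of all probes had it. Tyrobp was 1.81-fold higher (0.86, standard error 0.28, limma adjusted p = 0.0455), with wildtype rat 14 within the range of the Pirc rats. Fcer1g (0.89, limma adjusted p = 0.0516), Cd68 (0.71, 0.059) and Lyz2 (0.98, 0.093) did not pass. Without wildtype rat 14, 6 of 10 genes passed, and 1 passed in 13 of the 16 refits that left out 1 rat. When only the DSS-treated groups were fitted, 0 of 10 passed, with an adjusted p of 0.0521 for Aif1.

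These differences were unequal between slides. Within slide 1 the Pirc effect among DSS-treated rats was 0.66 for Aif1, 0.15 for Tyrobp, 0.16 for Fcer1g, 0.25 for Cd68 and 0.29 for Lyz2. Within slide 2 it was 1.53, 1.56, 1.61, 1.17 and 1.68 for the same genes (log2 differences of the means of 2 rats). In untreated rats Aif1 differed by 0.33 and 1.30 within slides 1 and 2, Tyrobp by 0.38 and 0.88 and Fcer1g by 0.77 and 0.91. Lyz2 differed by -0.58 and -0.19 in untreated rats, Cd68 by -0.03 and 0.43 and Cd163 by -0.23 and 0.99. The values of slide 2 were higher than those of slide 1 for each of these genes, but not for every member. In untreated rats Adgre1 differed by 0.22 and 0.04, Spi1 by 0.84 and 0.34 and Csf1r by -0.15 and 0.29. Among DSS-treated rats Adgre1 differed by 0.16 and 0.61, Spi1 by 0.35 and 0.52, Cd163 by 0.38 and 1.62 and Csf1r by -0.03 and -0.04. Mrc1, at background, was left out. With the slide as a block 2 of 10 genes passed among DSS-treated rats, whereas Tyrobp did not pass with the array row as a block (adjusted p = 0.0544) or with slide and row (adjusted p = 0.0694).

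**Figure D5:**
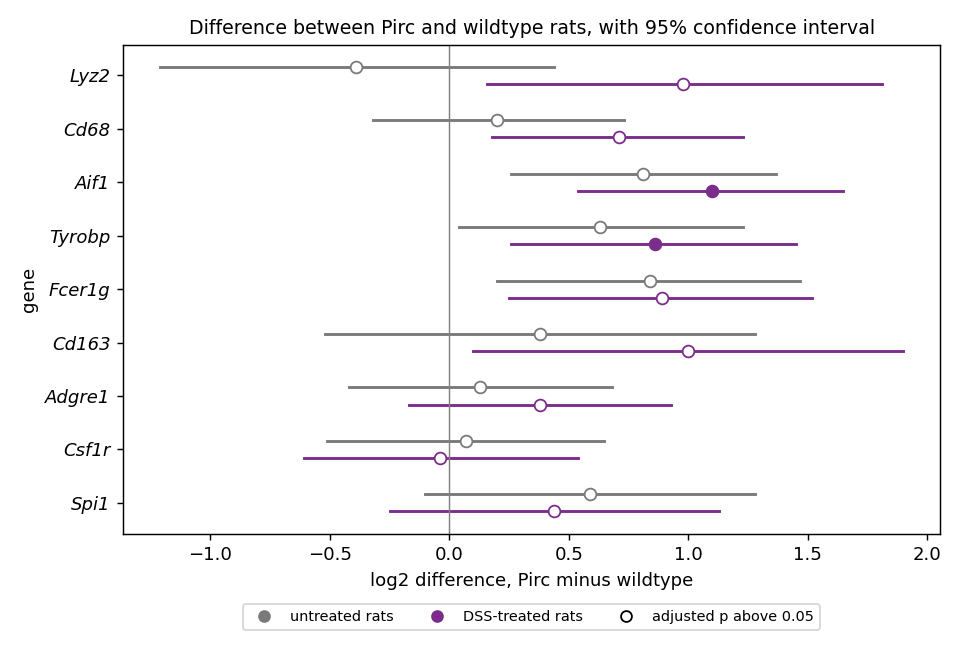
Log2 difference between Pirc and wildtype rats (x axis) for 9 genes (y axis; Mrc1, at background, is left out), in untreated and in DSS-treated rats, with 95% confidence intervals from limma; filled points have an adjusted p of 0.05 or less. Only Aif1 (1.10) and Tyrobp (0.86) are filled, both in DSS-treated rats, and no point of the untreated rats is filled.

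In the gene lists the Pirc effect over both treatments went both ways among the resident genes (4 of 19 other than members higher, 2 lower, median -0.13). The higher ones included C1qc (1.88-fold), C1qa (1.65-fold) and Il10 (log2 difference 1.78, well above background on 6 arrays), whereas the phagocytic receptor Mertk (log2 difference -0.78) and its ligand Gas6 (-0.63) were lower. Of the inflammatory list 6 of 27 were higher and 0 lower (median 0.76), among them S100a9 (4.95-fold), Tnf (4.92-fold) and S100a8 (3.51-fold). Of the colon epithelium markers 6 of 18 were lower and 0 higher, with Slc26a3 at -1.27 and Guca2a at -0.96 (log2 differences). Position genes that mark the distal colon were lower in 5 of 8 cases, among them Hoxd10 (-0.93), Hoxd13 (-0.83), Hoxd9 (-0.70) and Hoxb13 (-0.67). The part of the sampled position in the members' genotype differences was not tested.

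The members were also compared with each other over the rats, after the mean of each group was taken from its 4 rats, which leaves the differences between rats of a group. Tyrobp and Fcer1g were the most alike pair of members (Pearson r = 0.93 over 16 arrays), and Cd68 had r = 0.87 with each. Aif1 had r = 0.82 with Tyrobp and with Cd68. Csf1r was closest to Cd163 (r = 0.83) and had r = 0.28 with Fcer1g, and Spi1 ran between r = -0.13 and r = 0.38 with the other 8 members measured on all arrays. All points share the same arrays and scaling, and the values carry no test.

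Of 10353 other gene symbols measured on all 16 arrays, those most like the members by the same measure were as follows, with Adgre1 left out. Ncf4, a phagocyte oxidase subunit, was most like Tyrobp (r = 0.95), followed by Fcgr1a (0.93). Igsf6 was most like Fcer1g (r = 0.94) and C1qa most like Aif1 (r = 0.96). Bst1, an ectoenzyme of bone marrow stroma and myeloid cells, was most like Lyz2 (r = 0.92), followed by Fcgr2al1 (0.91). Cd68 was most like Lama5, a laminin chain of basement membranes (r = 0.95), and Gbp5, a guanylate-binding protein (0.93). Doxl1 and Tmem198b were most like Csf1r (r = 0.96 each), Mln most like Cd163 (r = 0.90) and Skic2 most like Spi1 (r = 0.83). Over all 16 arrays without removal of the group means, r stayed at 0.96 or more for Ncf4, Igsf6, C1qa, Bst1, Lama5 and Gbp5. It was 0.90 for Tmem198b, 0.83 for Doxl1, 0.12 for Mln and -0.07 for Skic2. The mean of the 9 well-measured members was most like Ifitm1 (r = 0.93), an interferon-induced membrane protein, Fcnb, a ficolin of myeloid cells (0.92), and Sdcbp, a scaffold protein (0.91). Without removal of the group means r was 0.97 for Ifitm1, 0.93 for Fcnb and 0.50 for Sdcbp.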

How the data were processed

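Total RNA of normal distal colon from 16 rats was hybridised to 1-colour arrays (Cy3). The authors deposited the output of Agilent Feature Extraction 10.7.3.1, whose intensity per spot had the background removed by that software and no scaling from array to array; Partek is the tool given in the submitters' processing notes. Here, control spots were removed, log2 signals were centred on the 75th percentile of each array, and the spots of a probe were averaged without outlier-flagged spots (25 probe values had every spot flagged and were kept). Probes were named by accession through a RefSeq table of the GRCr8 assembly (18006 of 30367 probes matched, 12361 did not); the array was designed on another build, so probes have no coordinates here. limma 3.58.1 in R 4.3.3 was fitted to all 16 arrays with 1 mean per group and tested on simulated data. The study's methods used ANOVA and added a factor of 2, which was tried as an alternative. Groups came from the sample titles. The members and the gene lists were chosen with earlier results of these data known. From each list, up to 4 genes were named per comparison, those with the largest difference among genes that passed and were well above background (a fraction of at least 0.5 of a probe's spots) on all arrays, with defining genes at background beside them. For likeness, the 3 nearest gene symbols by r within groups were ranked, and those named are from these. A few genes that these rules pick are not reported here. The number of arrays limits the precision. Alternatives were quantile normalization, normexp (offset 50, on median signals), median scaling, a filter and a floor for dim probes, flagged spots kept, slide and array row as blocks, only the compared groups, no moderation, averaged probes and each rat left out.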

Additional observations from a re-analysis of the deposited data

Results flagged for a closer look

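Spi1 in DSS-treated Pirc rat 12 had a relative signal of -4.71 and was flagged by Dixon's test within groups of 4. The other 3 rats of its group lay close together, from -5.13 to -5.09. The SD of this group (0.20) was the smallest of the 4 groups for Spi1, so the distance itself was small. This group was 1 of 40 examined, of which chance would give 2.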

How the results depend on the processing

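The number of members passing for DSS over both genotypes (7) and in Pirc rats (6), for Pirc in untreated rats (0) and for the difference between the DSS effects (0) stayed within a factor of 1.5 under every alternative run. For DSS in wildtype rats it was 5 and fell to 3 when only the compared groups were fitted. For Pirc over both treatments it was 3 and fell to 0 with an added factor of 2. For Pirc among DSS-treated rats it was 2; it was 1 with the factor of 2, a common floor, no moderation, the array row as a block, or that row together with the slide, 0 with only the compared groups, 4 with a filter on dim probes (21759 probes) and 5 with normexp. The cause was not tested. Leaving out 1 rat gave 1 to 6 members for Pirc among DSS-treated rats and 3 to 5 for Pirc over both treatments (6 and 5 without wildtype rat 14), 6 to 7 for DSS over both genotypes, 5 to 7 for DSS in Pirc rats and 5 for DSS in wildtype rats. Some differences that did not pass changed sign. Csf1r went to -0.08 (Pirc, untreated) and -0.10 (Pirc over both treatments) with averaged probes. Spi1 after DSS in wildtype rats went to -0.08 with normexp, -0.22 with quantile normalization and -0.02 with median scaling. Without 1 rat, Csf1r ranged from -0.01 to 0.36 (DSS in Pirc rats), -0.26 to 0.11 (Pirc among DSS-treated rats), -0.07 to 0.25 (Pirc, untreated) and -0.10 to 0.11 (Pirc over both treatments), and Spi1 from -0.38 to 0.10, -0.20 to 0.21 and -0.19 to 0.05 (DSS in Pirc rats, in wildtype rats and over both genotypes). Dim signals limit Mrc1, which lay at background. Whether a dim signal made the differences of Adgre1, Spi1 or Cd163 smaller was not tested. No paired analysis was possible because every rat has a number of its own, so the groups share no replicate numbers.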
